A study of Homo sapiens with 6 samples.

Results

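Nucleotide synthesis enzymes make the purine and pyrimidine building blocks of RNA and DNA. The set described here holds the genes of these routes in Huh7 cells, a human hepatocellular carcinoma line. Its members were 41 listed gene names, looked up by symbol in the count table. Since ADSS and ADSS2 are an older and a current name of the same gene, the list stood for 40 genes, all of which had a row among the 28265 genes of the table: 39 by a listed symbol and 1 (ADSS1, listed as ADSSL1) by an older one. They fell into 15 genes of purine synthesis and salvage, 9 of pyrimidine synthesis and salvage, 10 of deoxynucleotide formation and breakdown, and 6 nucleotide kinases that serve several routes. Of the 40 genes, 38 had enough counts to be tested.

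RNA was measured by sequencing of polyadenylated transcripts in 3 libraries of Huh7 cells that had received a lentiviral vector expressing LHX2, a LIM-homeodomain transcription factor, and in 3 libraries of cells that had received a control lentiviral vector, all after 48 h. Huh7 is 1 cell line, and the labels name neither the promoter of the vector nor whether the libraries of a group came from separate cultures, so each p-value refers to the spread among these 6 libraries, part or all of which may be technical. The comparison asked how the transcriptome differed between LHX2-overexpressing and control cells. In bulk RNA, fewer cells of a kind and less RNA per cell cannot be told apart.

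Purine synthesis builds the ring step by step on phosphoribosyl pyrophosphate (PRPP). PPAT takes the committed step, and the pathway ends at IMP, from which separate branches lead to AMP and GMP. Pyrimidine synthesis instead makes the ring first, through CAD and the mitochondrial DHODH, attaches it to PRPP at UMPS, and forms CTP at the CTP synthases. Ribonucleotide reductase then turns ribonucleotides into deoxynucleotides, thymidylate synthase adds the methyl group that makes dTMP, and salvage enzymes reuse bases and nucleosides. The liver is a major site of purine synthesis, and proliferating tumour cells draw on these routes for both RNA and DNA.

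The targeted gene matched the labels: the counts of LHX2 were 1, 2 and 1 with the control vector and 2535, 2427 and 3126 with the LHX2 vector. Total counts per library ran from 30029313 to 39653681. Of 11 hepatocyte markers all were tested, and ALB lay between 11623 and 12818 CPM (a count scaled to the size and composition of its library). Among 16 markers of other cell types 4 were tested, namely CD68 (7.73 to 9.40 CPM in controls, 16.0 to 17.2 with LHX2), PECAM1 (3.75 to 4.28 CPM in controls, 2.75 to 3.22 with LHX2), EPCAM (21.1 to 24.3 CPM in controls, 27.8 to 31.5 with LHX2) and SOX9. By edgeR CD68 (log2 fold change 0.99, adjusted p = 9.1e-07) and EPCAM (0.38, adjusted p = 8.0e-04) were higher with LHX2. PECAM1 (-0.41, edgeR adjusted p = 0.024) was lower, a call lost in 5 of 17 alternative analyses. The leukocyte marker CD3E, the endothelial markers CDH5 and KDR and the cholangiocyte marker KRT7 were at 0 in all 6 libraries (a count of 0 allows up to 0.0765 to 0.0998 CPM at 3 counts per library, counting error alone). The summed level of the 16 markers ran from 164 to 170 CPM in controls and from 175 to 182 CPM with LHX2, and without SOX9, EPCAM and CD68 from 4.49 to 4.93 and from 3.33 to 3.74 CPM. The part of these markers in the results was not tested.

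One stretch of DNA serves a pair of members. PPAT and PAICS lie head to head on chromosome 4 of GRCh38: in the GENCODE annotation, PPAT starts at base 56435615 on the minus strand and the first PAICS transcript at base 56435741 on the plus strand, 126 bases apart. Both genes were lower with LHX2, and so was ATIC. Of 13 purine windows, those of PPAT and ATIC alone hold the E-box word marked below (15.4%, beside 7.43% of all promoters). Other purine genes that were lower, such as GART, PFAS and ADSS2, have windows without it. The promoter windows of PPAT and ATIC are shown. They were taken from RefSeq (GRCh38.p14), are read 5′ to 3′ along each gene, and run from 250 bases before to 50 bases after the start. The PPAT window is chr4:56435566-56435865 (minus strand) and the ATIC window is chr2:215311809-215312108 (plus strand). Capitals mark the E-box word CACGTG, which reads the same on both strands and is the word bound by MYC and MAX as a pair.
PPAT: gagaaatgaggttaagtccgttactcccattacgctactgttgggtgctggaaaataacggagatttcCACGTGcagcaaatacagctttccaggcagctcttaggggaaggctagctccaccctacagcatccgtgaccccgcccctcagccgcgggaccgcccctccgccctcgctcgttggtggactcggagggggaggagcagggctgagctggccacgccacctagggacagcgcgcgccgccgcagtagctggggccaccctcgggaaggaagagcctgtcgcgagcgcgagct
ATIC: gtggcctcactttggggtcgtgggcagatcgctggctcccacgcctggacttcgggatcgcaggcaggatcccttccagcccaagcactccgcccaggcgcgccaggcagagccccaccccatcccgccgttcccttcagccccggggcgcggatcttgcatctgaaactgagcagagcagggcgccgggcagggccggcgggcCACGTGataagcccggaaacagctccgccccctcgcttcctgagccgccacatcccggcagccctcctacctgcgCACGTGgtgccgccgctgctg
The word stands 182 bases before the PPAT start, and in the ATIC window 46 bases before and 30 bases after the start. At PPAT it lies beyond the first PAICS start, 126 bases before the PPAT start, and so not between the starts. The RefSeq table places the PAICS window at another start inside PPAT, so that the shared stretch is printed under PPAT alone.

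Most purine and pyrimidine enzymes were lower in LHX2 cells, by modest amounts, while 7 of 10 deoxynucleotide genes did not pass. By edgeR's quasi-likelihood test with Benjamini-Hochberg adjustment over all genes (threshold 0.05), 23 of the 38 tested members changed, 60.5% of them, beside 32.5% of the 14533 genes tested. Lower in LHX2 cells were 19 of the 38 members, beside 15.8% of all genes, and higher were 4 members, 10.5%, beside 16.6%. The groups did not overlap for 25 of the 38 members, beside 44.9% of all genes. Most members are abundant transcripts, and the share called rises with abundance: where the mean reached 10 CPM, 40.4% of all genes were called, 18.9% higher and 21.4% lower, while the 36 members at that level had 4 higher and 19 lower. The median log2 fold change of the tested members was -0.16, beside 0.01 for all genes tested. No member reached a 1.5-fold change.

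Over all genes, 2415 were higher and 2301 lower, a share of 51.2% higher among those called. That split was 2798 to 1888 (59.7% higher) with library totals as the sole scaling, and 2103 to 3069 (40.7% higher) after removal of a trend over transcript length and GC content without recentring. No called member changed direction under either.

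**Figure D1:**
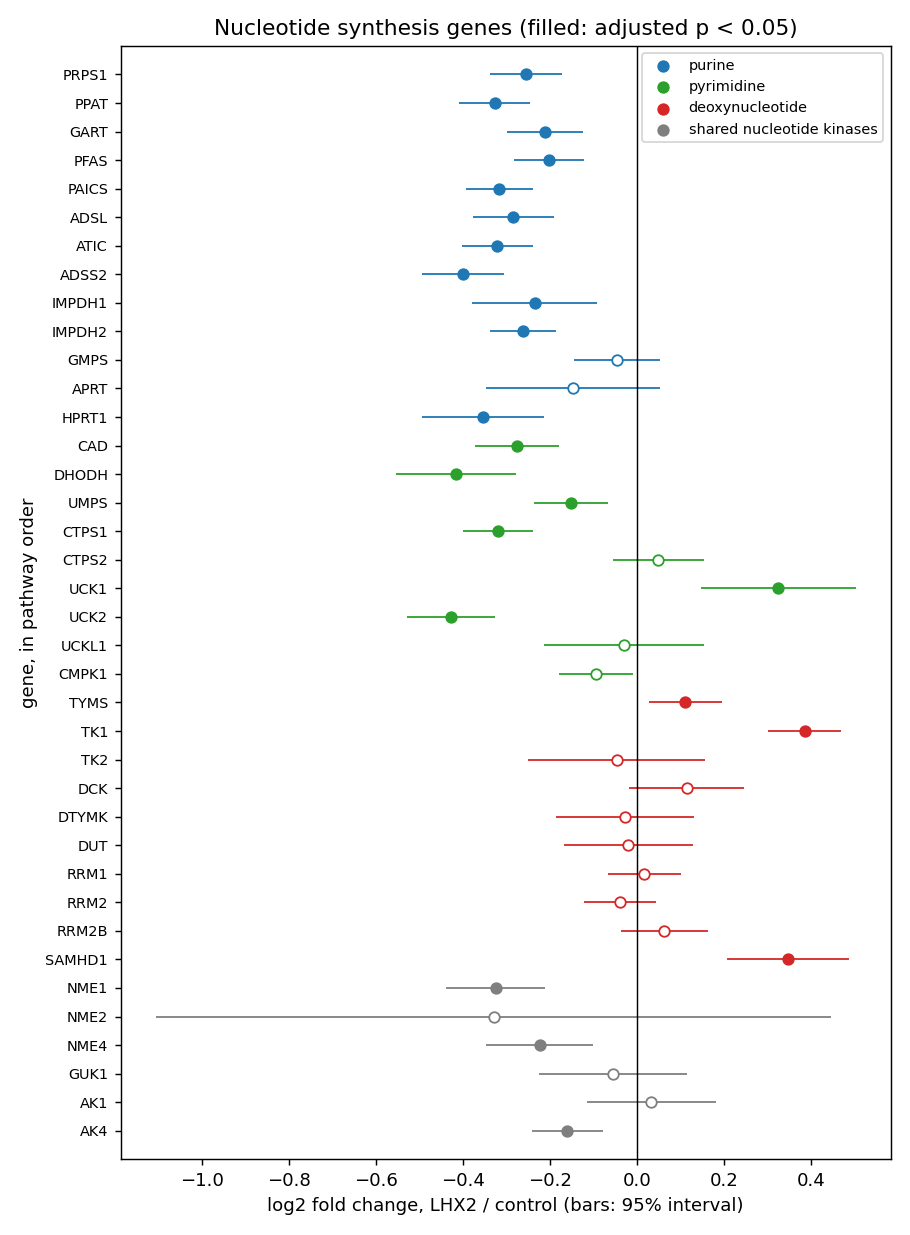
Log2 fold change of each tested member, LHX2 over control, in pathway order from purine (top) to shared kinases (bottom). Points are edgeR estimates from 3 libraries a group, bars are 95% intervals, and filled points passed the adjusted threshold of 0.05. All purine points lie left of 0, while the filled deoxynucleotide points TYMS, TK1 and SAMHD1 lie right of it.

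In the purine pathway 11 of 13 tested genes fell and 2 did not pass, with a median log2 fold change of -0.26. Transcripts of ring synthesis were lower at every gene: all 6 genes from PPAT to ATIC fell, with a median of -0.30. RNA alone was measured, and the activity of the pathway was not. PRPS1, which makes PRPP, fell with them, from 134 ± 2.86 to 112 ± 2.60 CPM (SD, n = 3 each), a log2 fold change of -0.26. The second PRPP synthetase, PRPS2, had 2 counts in control library 3 and 0 in the other libraries.

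PPAT, the amidotransferase of the committed step (chromosome 4, 56393362 to 56435615), measured 124, 124 and 127 CPM in the control libraries and 100, 102 and 97.3 CPM with LHX2. Every LHX2 library lay below every control library. The log2 fold change was -0.33 ± 0.04 (SE), a decrease of 20.3% (edgeR adjusted p = 1.3e-05). PAICS, its head-to-head neighbour, carries out the sixth and seventh steps in 1 protein and was the most abundant purine transcript in CPM. It measured 472, 485 and 482 CPM in controls and 386, 382 and 386 CPM with LHX2. Its decrease of 19.7% (log2 fold change -0.32, adjusted p = 9.8e-06 by edgeR) lay within 1 percentage point of that of PPAT.

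ATIC, the bifunctional enzyme that closes the ring and yields IMP (chromosome 2, 215312059 to 215368592), measured 162, 161 and 155 CPM in controls and 129, 125 and 128 CPM with LHX2. The groups did not overlap, and the log2 fold change was -0.32 ± 0.04 (SE, edgeR adjusted p = 1.4e-05). The remaining ring genes changed less. ADSL, which acts both in the ring pathway and in the AMP branch, had a log2 fold change of -0.29. The trifunctional GART had -0.21 (edgeR adjusted p = 0.0010) and PFAS, the amidotransferase of the fourth step, had -0.20 (adjusted p = 7.3e-04), the latter -0.31 or -0.32 after removal of the length and GC trend with or without recentring. Their standard errors were near 0.04, so that the interval of PFAS (-0.28 to -0.12) and that of PPAT (-0.41 to -0.25) overlap. Of the exon bases of ADSL, 28.4% are also covered by another gene model on the same strand, and how the authors' counting treated such bases is not stated in the labels.

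After IMP, transcripts of the AMP branch and of the first step of the GMP branch were lower, while that of the last step to GMP was not shown to change. ADSS2, which commits IMP to AMP (chromosome 1, 244408494 to 244452060), had the largest decrease among the purine genes. It measured 80.1, 82.9 and 86.8 CPM in controls and 64.5, 61.5 and 63.3 CPM with LHX2. The groups were well apart, and the log2 fold change was -0.40 ± 0.04 (SE, edgeR adjusted p = 7.5e-06), a decrease of 24.2%. ADSS1, its muscle-type counterpart, had 0 to 4 counts in a library and was not tested.

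IMPDH2, the main IMP dehydrogenase of dividing cells and the rate-setting enzyme towards GMP, measured 280, 281 and 279 CPM in controls. With LHX2 it measured 235, 236 and 229 CPM, below every control, with a log2 fold change of -0.26 ± 0.04 (SE, edgeR adjusted p = 5.2e-05). IMPDH1, the other IMP dehydrogenase, fell from 35.4 ± 2.64 to 30.0 ± 2.04 CPM (SD, n = 3 each), a log2 fold change of -0.24 (edgeR adjusted p = 0.015). This call did not pass without LHX2 replicate 2 (log2 fold change -0.19) or without control replicate 1 (-0.18). GMPS, which completes GMP, measured 119 to 123 CPM in controls and 109 to 124 CPM with LHX2, so that the groups overlapped. Its log2 fold change of -0.05 had a 95% interval of -0.15 to 0.05, and it passed as lower after removal of the length and GC trend (-0.13 with recentring).

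Both purine salvage genes had negative estimates, and 1 of them passed. HPRT1, which returns hypoxanthine and guanine to the nucleotide pool (X chromosome, 134460165 to 134500668), measured 35.4, 35.3 and 34.7 CPM in controls and 25.3, 26.8 and 30.2 CPM with LHX2. The controls were tightly grouped and the LHX2 libraries more spread, without overlap. Its log2 fold change was -0.35 ± 0.07 (SE, edgeR adjusted p = 7.4e-04). APRT, which salvages adenine, measured 69.0, 67.0 and 52.0 CPM in controls and 52.3, 53.2 and 64.0 CPM with LHX2. Control library 3 and LHX2 library 3 each lay with the opposite group, and APRT did not pass (log2 fold change -0.15, 95% interval -0.35 to 0.05). It passed as lower without LHX2 replicate 3 (-0.25) and without control replicate 3 (-0.26).

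**Figure D2:**
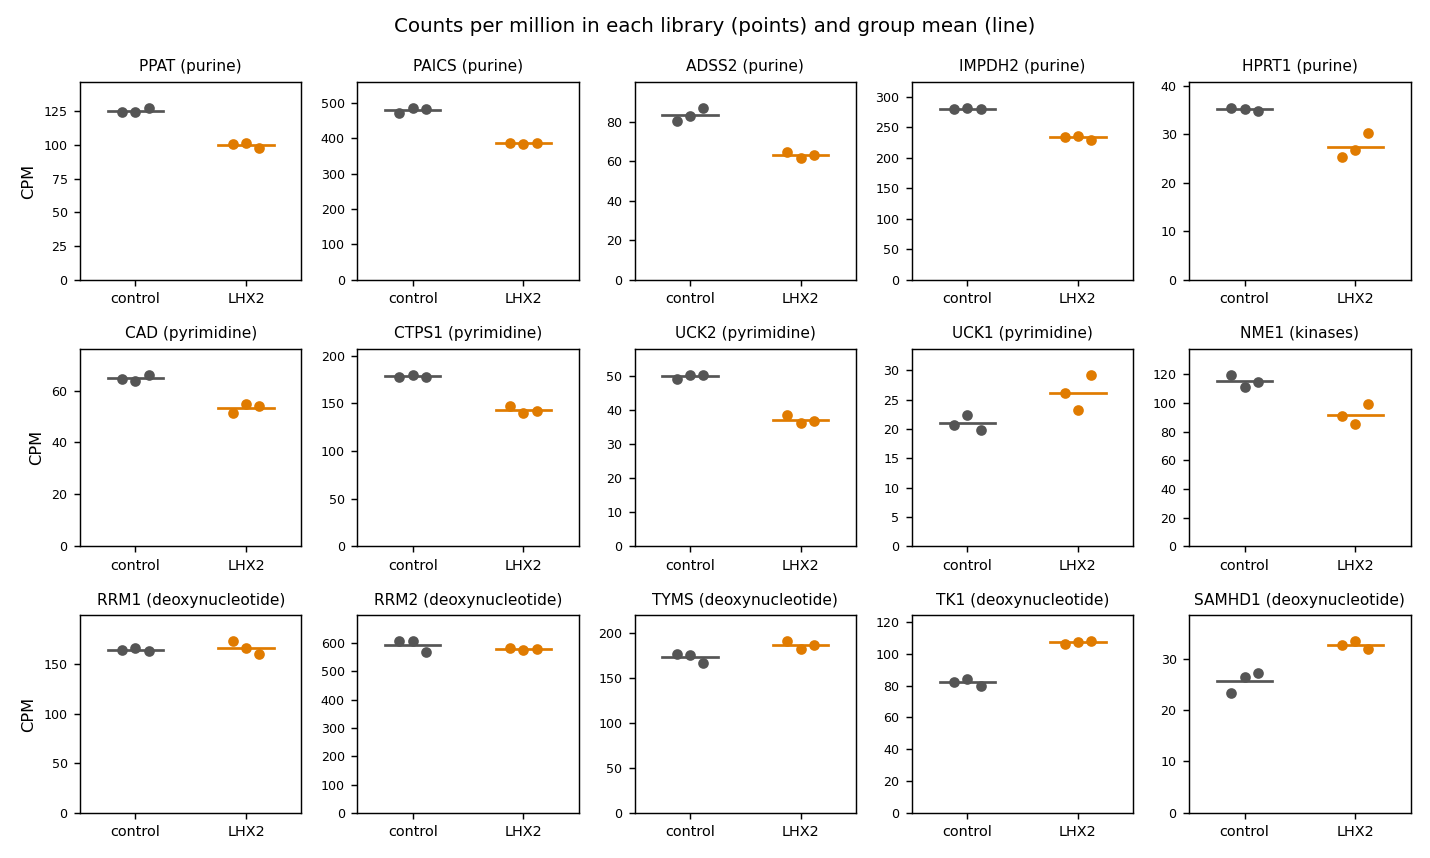
CPM of 15 members in each of the 6 libraries (points, replicates 1 to 3 from left to right) with the group mean (line), each panel on its own axis from 0. LHX2 libraries lie below all controls for PPAT, PAICS, ADSS2, IMPDH2, HPRT1, CAD, CTPS1, UCK2 and NME1, above all controls for UCK1, TYMS, TK1 and SAMHD1, and overlap with them for RRM1 and RRM2.

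Among pyrimidine genes, the de novo route fell at 4 of 5 genes and nucleoside salvage went both ways. Over the class, 5 of 9 genes fell, 1 rose and 3 did not pass, with a median log2 fold change of -0.15. CAD, the trifunctional enzyme of the first steps, measured 64.4, 63.7 and 66.1 CPM in controls and 51.2, 55.0 and 54.1 CPM with LHX2. The groups did not overlap and the decrease was 17.4% (log2 fold change -0.28 ± 0.05, SE, edgeR adjusted p = 2.4e-04). After removal of the length and GC trend its log2 fold change was -0.42 with recentring and -0.43 without.

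DHODH, the mitochondrial dehydrogenase that links pyrimidine synthesis to the respiratory chain (chromosome 16, 72008744 to 72027659), measured 26.1, 24.96 and 24.7 CPM in controls and 18.8, 18.2 and 19.7 CPM with LHX2. All 3 LHX2 libraries were clearly below the controls. The log2 fold change was -0.42 ± 0.06 (SE, edgeR adjusted p = 1.7e-04), a decrease of 25.1%. UMPS, which forms UMP, changed less, from 86.6 ± 0.751 to 78.0 ± 2.14 CPM (SD, n = 3 each; log2 fold change -0.15, edgeR adjusted p = 0.0090). That change was -0.23 after removal of the trend without recentring.

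The CTP synthases differed from each other. CTPS1, the form induced in proliferating cells, measured 178, 180 and 177 CPM in controls and 147, 140 and 142 CPM with LHX2. It fell by 0.32 on the log2 scale (SE 0.04, edgeR adjusted p = 1.3e-05). CTPS2, the other CTP synthase, measured 36.4, 36.0 and 35.3 CPM in controls and 37.6, 36.5 and 37.2 CPM with LHX2. Its LHX2 libraries were all slightly higher, but the log2 fold change of 0.05 (95% interval -0.06 to 0.15) did not pass. The log2 ratio of CTPS1 to CTPS2 counts within a library, which does not depend on library scaling, went from 2.32 ± 0.02 to 1.95 ± 0.02 (SD, n = 3 each).

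Uridine and cytidine are salvaged by uridine-cytidine kinases, and here a pair of them moved in opposite directions. UCK2, the form enriched in many tumours (chromosome 1, 165827614 to 165911618), measured 49.1, 50.5 and 50.4 CPM in controls and 38.5, 36.2 and 36.9 CPM with LHX2. At -0.43 ± 0.05 (SE, edgeR adjusted p = 7.6e-06) its log2 fold change was the largest of all 38 members in absolute size, a decrease of 25.7%. UCK1, the widely expressed form, measured 20.7, 22.5 and 19.8 CPM in controls and 26.1, 23.3 and 29.3 CPM with LHX2. It was thus higher in every LHX2 library, with a log2 fold change of 0.32 ± 0.08 (SE, edgeR adjusted p = 0.0076). The log2 ratio of UCK1 to UCK2 went from -1.26 ± 0.09 to -0.51 ± 0.16 (SD, n = 3 each). UCKL1, a related kinase-like gene, did not pass (log2 fold change -0.03, 95% interval -0.21 to 0.15). CMPK1, which phosphorylates UMP and CMP and was the third most abundant member per length, measured 435 to 457 CPM in controls and 412 to 434 CPM with LHX2. It did not pass (log2 fold change -0.10, edgeR adjusted p = 0.079) and did without LHX2 replicate 3 (-0.12).

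Of the deoxynucleotide genes 3 of 10 rose and 7 did not pass, and the median log2 fold change was 0.04. Over all genes tested 32.5% were called and 16.6% were higher, so that the share of deoxynucleotide genes called was no larger than over all genes. The count that rose was 2 in 8 of the 17 alternatives, and 4 in 1. The core of the pathway, ribonucleotide reductase, was not shown to change. RRM1, its catalytic subunit, measured 165, 167 and 164 CPM in controls and 174, 167 and 160 CPM with LHX2, so that the groups overlapped. Its log2 fold change of 0.02 had a 95% interval of -0.07 to 0.10. RRM2, the S-phase small subunit, measured 606, 607 and 569 CPM in controls and 580, 575 and 579 CPM with LHX2. The LHX2 libraries lay within the range of the controls, and the interval of its log2 fold change ran from -0.12 to 0.04. RRM2B, the p53-inducible small subunit, was at 46.2 ± 1.58 and 48.2 ± 1.11 CPM (SD, n = 3 each; interval -0.04 to 0.16). Decreases as large as that of IMPDH2 (-0.26) lie outside all 3 intervals. Of the exon bases of RRM2, 27.9% are shared with another gene model on the same strand.

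TK1, the cytosolic thymidine kinase of S phase (chromosome 17, 78174079 to 78187204), rose most. It measured 82.1, 84.3 and 80.1 CPM in controls and 106, 107 and 108 CPM with LHX2. The LHX2 libraries were nearly identical and all above the controls, with a log2 fold change of 0.38 ± 0.04 (SE, edgeR adjusted p = 3.2e-06), or 1.31-fold. SAMHD1, a hydrolase that degrades deoxynucleoside triphosphates and so acts against the rest of the class (chromosome 20, 36889773 to 36951708), measured 23.4, 26.5 and 27.2 CPM in controls and 32.7, 33.4 and 31.9 CPM with LHX2. The groups did not overlap, and the log2 fold change was 0.35 ± 0.07 (SE, edgeR adjusted p = 8.8e-04). Of its exon bases, 18.8% overlap TLDC2 on the opposite strand.

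TYMS, which makes dTMP, measured 177, 176 and 167 CPM in controls and 191, 183 and 187 CPM with LHX2. The groups lay apart by a small margin, with a log2 fold change of 0.11 ± 0.04 (SE, edgeR adjusted p = 0.043). This call was lost in 9 of 17 alternative analyses, among them the removal of each control replicate (0.08 to 0.12) and DESeq2 (0.11). Of the exon bases of TYMS, 64.6% are covered by ENOSF1 or TYMSOS on the opposite strand, and whether the counting used strand is not stated in the labels.

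The other deoxynucleotide genes did not pass. DCK, which phosphorylates deoxycytidine, had a log2 fold change of 0.11 (95% interval -0.02 to 0.25), and passed as higher without LHX2 replicate 1 (0.17) and after removal of that trend with recentring (0.16). TK2, the mitochondrial thymidine kinase, was the lowest of the class at 8.53 CPM in controls and 8.26 CPM with LHX2 (log2 fold change -0.05, 95% interval -0.25 to 0.16). DTYMK, which phosphorylates dTMP, and DUT, which keeps dUTP out of DNA, had log2 fold changes of -0.03 (95% interval -0.19 to 0.13) and -0.02 (-0.17 to 0.13). In both, control library 3 was the lowest control and LHX2 library 3 the highest of its group, so that the groups overlapped widely.

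**Figure D3:**
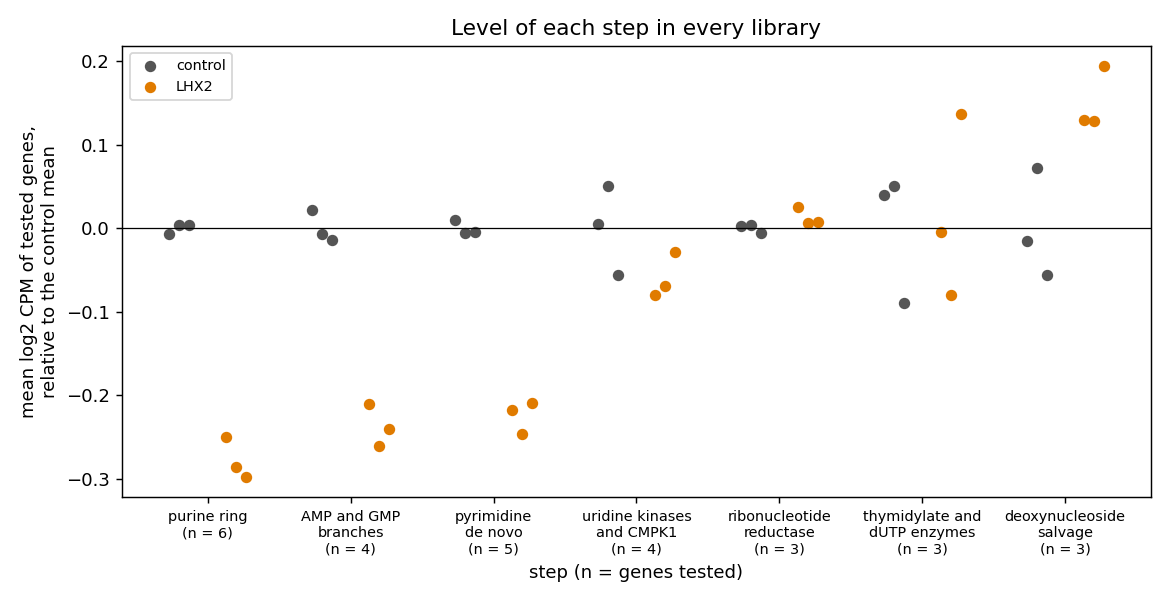
Mean log2 CPM over the tested genes of each step in every library, with the mean of the controls set to 0. Points are libraries, replicates 1 to 3 from left to right. LHX2 libraries lie at -0.30 to -0.25 for the purine ring and -0.25 to -0.21 for pyrimidine de novo synthesis, and at 0.01 to 0.03 for ribonucleotide reductase.

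The mean over the genes of a class was also taken in each library, as in the plot of step levels. For the 13 purine genes, the mean log2 CPM relative to the control mean lay at -0.25, -0.28 and -0.24 in the LHX2 libraries and between -0.02 and 0.01 in the controls. For the 9 pyrimidine genes it lay at -0.16, -0.17 and -0.13, with controls between -0.03 and 0.02. For the 10 deoxynucleotide genes it lay at 0.08, 0.05 and 0.13, above the controls at -0.01, 0.04 and -0.04. Thymidylate and dUTP enzymes (TYMS, DTYMK and DUT) overlapped between the groups, from -0.09 to 0.05 in controls and from -0.08 to 0.14 with LHX2. The groups overlapped too for purine salvage (-0.14 to 0.08 in controls, -0.36 to -0.09 with LHX2), for the uridine kinases with CMPK1 (-0.06 to 0.05, and -0.08 to -0.03) and for the shared kinases (-0.15 to 0.11, and -0.36 to -0.09). Each gene weighs the same in such a mean. For the shared kinases that includes NME2, at 11 to 38 counts a library, and the mean without NME2 was not taken. These means describe genes chosen for the comparison, and no test was made over them.

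The kinases that complete nucleoside diphosphates and triphosphates fell at 3 of 6 genes, and 3 did not pass. NME1, a nucleoside diphosphate kinase, measured 120, 111 and 115 CPM in controls and 90.7, 85.1 and 99.5 CPM with LHX2. Its groups did not overlap and its log2 fold change was -0.33 ± 0.05 (SE, edgeR adjusted p = 2.8e-04). NME4, a mitochondrial family member, measured 38.2, 37.6 and 34.6 CPM in controls and 31.5, 30.3 and 32.8 CPM with LHX2 (log2 fold change -0.22, edgeR adjusted p = 0.0077). AK4, a mitochondrial adenylate kinase, measured 322, 330 and 344 CPM in controls and 295, 294 and 302 CPM with LHX2. All LHX2 libraries of both genes lay below the controls, and AK4 had a log2 fold change of -0.16 (edgeR adjusted p = 0.0050).

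GUK1, the guanylate kinase, and AK1, the cytosolic adenylate kinase, did not pass, with log2 fold changes of -0.06 and 0.03. NME2, the neighbour and near copy of NME1, had 11 to 38 counts per library, and its log2 fold change of -0.33 carried an interval of -1.11 to 0.45. A readthrough gene model, NME1-NME2, covers 32.4% of the exon bases of NME1 and 40.4% of those of NME2, and reads in such bases could be split or discarded in the counting. The levels of both genes are uncertain for that reason.

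**Figure D4:**
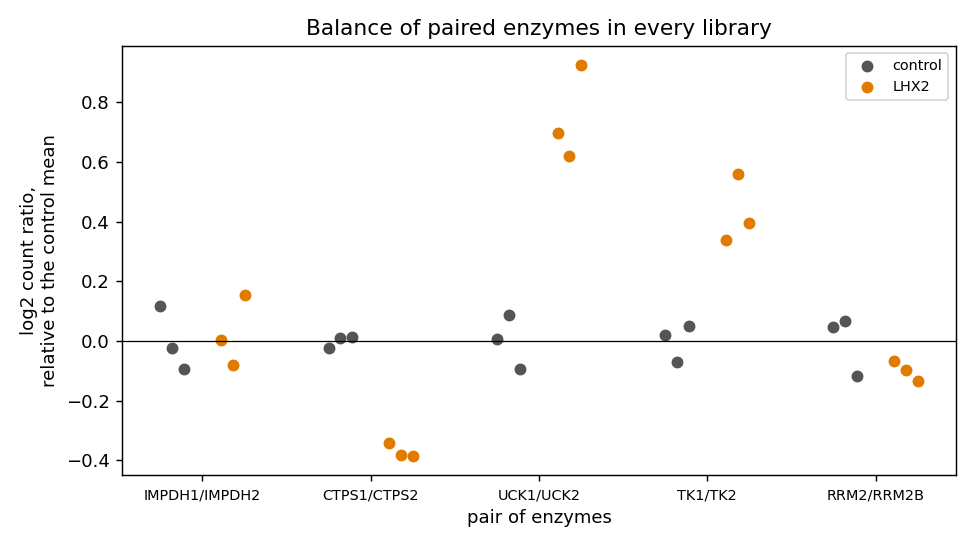
Log2 ratio of the counts of paired enzymes within each library, relative to the mean ratio of the controls; points are libraries. LHX2 libraries lie below all controls for CTPS1/CTPS2 and above all controls for UCK1/UCK2 and TK1/TK2, and overlap with them for IMPDH1/IMPDH2 and RRM2/RRM2B. NME1/NME2 was computed but is not drawn.

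For 8 pairs of enzymes with the same reaction, the balance within a library was compared, and 6 pairs had counts for it. The difference of the mean log2 ratio, LHX2 minus control, was 0.75 for UCK1/UCK2, 0.43 for TK1/TK2 and -0.37 for CTPS1/CTPS2. In these 3 pairs the libraries of the groups did not overlap, and each gave p = 0.1 in a two-sided exact permutation test (adjusted p = 0.20 over 6 pairs), the smallest p that 3 against 3 libraries allow. RRM2/RRM2B differed by -0.10 (exact permutation p = 0.3, adjusted 0.45), IMPDH1/IMPDH2 by 0.03 (p = 0.7, adjusted 0.84) and NME1/NME2 by 0.01 (p = 1.0). IMPDH2 was the larger part of its pair in every library.

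On a per-length scale (CPM per kilobase of the longest GENCODE transcript), the control cells held most of IMPDH2 (170), RRM2 (162), CMPK1 (153) and TYMS (104). PAICS (74.0), ATIC (70.0), NME1 (70.0), APRT (66.2) and PRPS1 (62.0) followed, and RRM1 stood at 52.1. The committed enzymes PPAT (30.9) and CAD (8.91) were below these. DHODH (5.24), SAMHD1 (4.68) and TK2 (1.67) were among the lowest of the tested members. The members that fell thus included some of the most and some of the least abundant ones, as the plot of change against abundance shows.

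**Figure D5:**
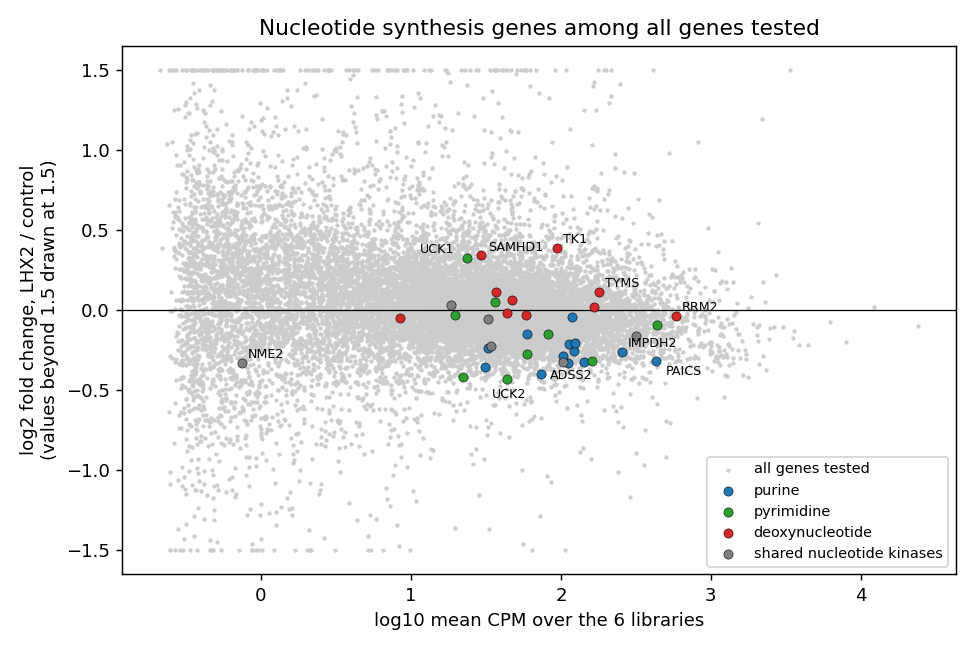
Log2 fold change (vertical axis, values beyond 1.5 drawn at 1.5) against log10 of the mean CPM over the 6 libraries for all 14533 genes tested (grey) and the 38 tested members (coloured by class). Members lie between -0.43 and 0.38, inside the spread of all genes, and NME2 stands apart at low counts.

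Promoter words were counted in the windows of the 37 members with a RefSeq entry, in both directions, as a description of letters. The E-box word CACGTG was in 7 of 37 windows (18.9%: PPAT, ATIC, DHODH, UCKL1, DCK, NME1 and AK4), beside 7.43% of 27305 RefSeq promoters of the same length. Of these 7 genes 5 fell and 2 did not pass, with a median log2 fold change of -0.32. Over all genes tested 15.8% were lower, and 21.4% where the mean reached 10 CPM. The share lower among all genes with the word was not computed. Of the 28 tested members whose window lacks the word, 12 fell and 4 rose, with a median of -0.12. PAICS is among these 28 by its own RefSeq window, which lies at another start inside PPAT. ADSL and IMPDH2, both lower, and RRM2B have no RefSeq window and are in neither count. The part of the word in these changes was not tested. The word in the PPAT window stands 182 bases before the PPAT start. It is thus beyond the first PAICS start, 126 bases before the PPAT start, and not in the stretch between the starts. The LIM-homeodomain word TAATTA was in 1 of 37 windows (TK2, 2.70%), beside 4.98% of all. E2F words (TTTCCCGC, TTTGGCGC, TTTGCCGC or TTTCGCGC) were in 3 windows (8.11%: PRPS2, TYMS and DCK), beside 3.33%. CCAAT was in 29.7% of the windows, beside 35.7%, and the NRF1 core GCGCATGC in 5.41% (CTPS1 and UCK1), beside 3.27%.

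Of 13 genes that feed the purine and thymidylate rings with one-carbon units, glutamine, serine or pentose, 8 fell and 5 did not pass, with a median log2 fold change of -0.19. Over all genes tested 15.8% were lower. GLUL, glutamine synthetase, measured 342, 347 and 362 CPM in controls and 262, 254 and 269 CPM with LHX2 (log2 fold change -0.42, edgeR adjusted p = 1.5e-06). MTHFD2, a mitochondrial folate enzyme that supplies formyl units for the purine ring, measured 117, 118 and 111 CPM in controls and 90.5, 88.9 and 83.3 CPM with LHX2. Its log2 fold change of -0.40 lay close to that of TKT (-0.39), the transketolase of the pentose phosphate pathway. The call of SHMT1 (-0.13) was lost in 9 of the 17 alternatives.

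Of 27 tested genes of nucleotide breakdown and nucleoside handling, 1 rose, 6 fell and 20 did not pass, where 32.5% of all genes tested were called. The gene that rose was NT5C2, a cytosolic nucleotidase that dephosphorylates IMP and GMP. It measured 217, 220 and 215 CPM in controls and 405, 396 and 381 CPM with LHX2, a log2 fold change of 0.86 ± 0.04 (SE, edgeR adjusted p = 3.8e-10). That was larger than any change among the synthesis genes, the largest of which was -0.43. PNP, which releases purine bases from nucleosides, had a log2 fold change of -0.47, and ADK, which returns adenosine to AMP, of -0.37 (edgeR adjusted p = 3.6e-04). Of 6 tested nucleoside and nucleotide carriers, SLC25A33, a mitochondrial pyrimidine nucleotide carrier, fell (-0.27), 4 did not pass, and SLC25A36 rose (0.14), a call lost in the replicate block and without LHX2 replicate 2, control replicate 1 or control replicate 2.

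Among 12 regulators described for nucleotide genes, 2 rose, 2 fell and 8 did not pass, where 32.5% of all genes tested were called. MYCN, a MYC-family factor, measured 94.6, 100 and 93.1 CPM in controls and 32.0, 31.6 and 34.7 CPM with LHX2 (log2 fold change -1.55, edgeR adjusted p = 1.0e-11). MAX, the partner of MYC proteins, fell by 0.25 on the log2 scale, and E2F2, an S-phase factor, rose by 0.38. MYC itself, named after its value was seen, measured 17.8 to 21.1 CPM in controls and 22.3 to 24.1 CPM with LHX2. Its log2 fold change of 0.22 (edgeR adjusted p = 0.034) was no longer called in the replicate block and without LHX2 replicate 1, control replicate 1 or control replicate 3.

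Proliferation markers did not move together. Of 15 tested, 4 rose, 2 fell and 9 did not pass, with a median log2 fold change of 0.01. Over all genes tested 32.5% were called, and 40.4% where the mean reached 10 CPM. The list was thus called about as often as genes at that level. CCNE2, a cyclin of S-phase entry, rose by 0.51, MCM6, a subunit of the replicative helicase, rose by 0.18, and CCNA2, the cyclin of S phase and G2, fell by 0.25. CCNB1 fell by 0.12, a call lost in the replicate block, without control replicate 2 and after removal of the length and GC trend. The count of 4 that rose includes MKI67 (0.17, and -0.0026 or -0.0127 after removal of the length and GC trend with or without recentring) and TOP2A (0.12), both named after their values were seen. Both were lost in the replicate block, where 2 rose and 1 fell. They were also lost without LHX2 replicate 2, control replicate 1 or control replicate 2, where 2 rose. TOP2A was lost in 7 of the 17 alternatives. Among them were the omission of control replicate 3 and the removal of the trend (0.0966 with recentring, 0.0864 without). How far the cell cycle moved with the nucleotide genes was not tested.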

How the data were processed

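Libraries came from column-purified RNA and a kit for stranded mRNA, per the labels' protocols. The submitters' processing notes name TopHat2 2.1.1 with Bowtie2 2.3.5.1, featureCounts 2.0.0, SAMtools 1.9, FastQC and bcl2fastq 2.20, and the human build GRCh38 (hg38). Neither the gene annotation nor the strand setting is given in the sources used here. The authors deposited whole-number counts of reads per gene, without normalization.

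The column of 1 control library was written differently and was taken as control replicate 1 by its last digit. All 6 libraries entered 1 fit in edgeR 4.0.16 (R 4.3.3): filterByExpr (its defaults, a minimum count of 10, a total of 15 and a proportion of 0.7 that acts in large groups), TMM factors (0.985 to 1.02) and the quasi-likelihood F-test on the group, with Benjamini-Hochberg adjustment over 14533 genes at 0.05. Standard errors came from the F statistic, intervals are at 95%, and CPM values are TMM-scaled. The test was checked on simulated data with 50 changed genes at each size. It recovered 25 at 1.2-fold, 36 at 1.25-fold, 47 at 1.5-fold and 50 at 2-fold, and called 15 of 14160 unchanged genes. The changed genes were drawn from those with higher counts. Far fewer genes changed there than the 32.5% called in the data, so that the adjusted threshold was stricter in the simulation. A change near 1.2-fold could fail to pass there, but these rates do not carry over to the members. In the data TYMS passed at 1.08-fold. Per-length levels and the length and GC trend used the longest GENCODE release 29 transcript. Paired enzymes were compared by exact permutation over libraries. Reads carry no molecular identifiers, so floors cover counting error alone.

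Members and gene lists were chosen with earlier results of these data known. By the rule for named genes, every member is named, and libraries are given for up to 4 members a class with the largest called changes and for rate-setting enzymes. Of each surrounding list up to 3 called genes are named. PAICS, GMPS, APRT, CTPS2 and other values beyond the rule were chosen after they were seen. There were 17 alternatives per gene: RLE size factors, upper-quartile factors, library totals, LHX2 left out, no filter, a minimum of 1 CPM in 3 libraries, the replicate number as a block, omission of each library, a length and GC trend removed with and without recentring (the latter added after seeing the data), limma-voom (limma 3.58.1) and DESeq2 1.42.0.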

Additional observations from a re-analysis of the deposited data

How the results depend on the processing

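Of the 23 called members, 21 kept their call and direction in all 17 alternatives. The exceptions were TYMS (lost in 9) and IMPDH1 (lost in 2), and 4 members that did not pass (GMPS, APRT, CMPK1 and DCK) passed in at least 1. Between 3 and 4 members were called higher and between 18 and 21 lower when each library was left out in turn. The median log2 fold change of purine genes (-0.26) was -0.2353 with library totals alone, -0.2916 after removal of the length and GC trend with recentring, -0.3019 without recentring, and ran from -0.2826 to -0.2545 with a library left out. For pyrimidine genes (-0.15) the values were -0.1236, -0.2236 and -0.2339, and -0.1750 to -0.1307. The sign of MKI67 turned with the trend removed, to -0.0026 with recentring and -0.0127 without; a trend over length and GC is what that alternative removes.

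With a replicate block the members had 3 higher and 19 lower calls, and over all genes 3768 were called in place of 4716. The deviations of same-numbered libraries correlated at -0.17, -0.16 and -0.38. No library correlated best with its own number. With 3 libraries a group, and the libraries numbered 3 apart from the others in part of the genes, these values cannot tell whether same-numbered libraries shared a culture or batch. DESeq2 called 4209 genes. NME2, with 11 to 38 counts a library, had the widest interval of the tested members.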

Other observations

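The libraries numbered 3 stood apart within their groups for part of the set. In 12 of the 38 tested members (31.6%), control library 3 was the lowest control and LHX2 library 3 the highest LHX2 library, beside 17.3% of all genes tested. They were IMPDH1, APRT, HPRT1, DHODH, UCK1, CMPK1, TK1, DCK, DTYMK, DUT, NME4 and GUK1. The 2512 genes with that pattern had a median GC content of 55.6% and a median transcript length of 2936 bases, beside 47.6% and 3548 bases for all genes tested. The opposite pattern was seen in PPAT, GART and SAMHD1 and in 2574 genes with a median GC content of 44.1% and a median length of 4297 bases. The part of this pattern in the members' results was not tested beyond the analyses without each library and with the length and GC trend removed.

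Among the hepatocyte markers 1 rose, 4 fell and 6 did not pass, with a median log2 fold change of -0.10. Over all genes tested 32.5% were called. Of those that fell, APOA2, an apolipoprotein of high-density lipoprotein, had -0.36 and SERPINA1, the antitrypsin gene, had -0.30. HNF4A, a transcription factor of hepatocyte identity, had -0.26. The marker that rose was TF (0.22, edgeR adjusted p = 0.0055). Its call was lost after removal of the length and GC trend (0.02 with recentring, 0.01 without). ALB (0.02) and APOA1 (0.0001) were among those that did not pass.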
